A study of Mus musculus with 24 samples.

Results

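The total mRNA of pancreatic tumour organoids was compared between treatment with CR-31 and treatment with vehicle. The comparison rests on 6 of the 24 RNA-sequencing libraries of the study, which are the total mRNA libraries of KP organoids, 3 treated and 3 untreated, joined into 3 pairs by the replicate number in their labels. KP organoids are cultures grown from mouse pancreatic tumours of an engineered model that bears p53 R172H, so every library here carries this allele. Treated organoids, labelled CR1-31-b, received 10 nM CR-31 for 1 h, and the controls received vehicle, which was DMSO. All groups were in medium without EGF and N-acetylcysteine, and cycloheximide was added to all of them shortly before lysis. Total RNA was taken from each lysate before the sucrose gradient that gave the polysome-associated mRNA of the same lysate. N organoids, grown from ductal cells of wild-type mice, went through the same treatment and serve below as another set of 3 pairs. The sources used here do not say whether the replicates are separate cultures or lines, so the p-values measure only the spread between these samples, which may be technical.

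CR-31 is a synthetic rocaglate, a class of compounds that lock the RNA helicase eIF4A onto polypurine stretches of mRNA. eIF4A is the helicase of the eIF4F complex, which unwinds 5′ leaders so that the small ribosomal subunit can scan to the start codon. Total mRNA at 1 h reports how much of each transcript is present, not how well it is translated. Transcripts that can shift within such a time are mainly those that turn over fast, and the best known of them are the immediate early genes, whose transcription needs no new protein and whose mRNAs carry AU-rich elements that speed their decay.

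The 6 libraries held between 86264727 and 167384903 counted reads each, so that counting error is small beside the spread between replicates for all but the least abundant genes. The cells matched their label. All 12 markers of duct and simple epithelium were above 0 in all 6 libraries, with a summed level of 3866 to 6260 RPKM in vehicle and 4950 to 5856 RPKM in CR-31. The fibroblast and endothelial lists summed to at most 0.32 and 0.059 RPKM, with Col1a2, Col3a1, Dcn, Lum, Cdh5 and Emcn at 0 in all 6, and the endocrine list to at most 0.0911 RPKM with Ins1, Ins2, Gcg and Ppy at 0. The acinar list summed to 2.88 to 3.67 RPKM, led by Cela1 with Cpa1 and Amy2a5 at 0, and the immune list to 1.90 to 3.74 RPKM, led by Cd68 with Ptprc at 0. In bulk samples such as these, fewer cells of a type and less RNA per cell cannot be told apart.

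The first pair stood apart from the other two. The median size of the log2 ratio of CR-31 to vehicle over the 12209 tested genes was 0.46 in pair 1, 0.19 in pair 2 and 0.12 in pair 3. In pair 1 the ratio also ran with transcript length. From the shortest to the longest quintile of the transcripts its median went through 0.33, 0.26, 0.11, -0.08 and -0.43 on the log2 scale. Pair 2 ran the other way and less steeply, from -0.13 in the shortest quintile to 0.14 in the longest, and pair 3 stayed between -0.04 and 0.02. The library that departed was CR-31 replicate 1, whose median distance from the mean of the 6 libraries was 0.37 on the log2 scale, against 0.18 to 0.19 for the other 5. Most of the lists described below are therefore given with their counts without replicate 1, to be read against the shares of all tested genes in that fit.

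**Figure D1:**
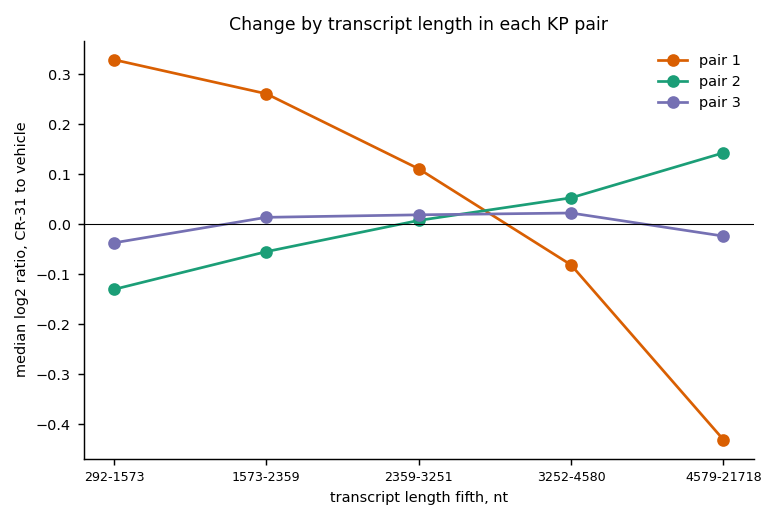
Median log2 ratio of CR-31 to vehicle in total mRNA of KP organoids, for quintiles of the 12209 tested genes by transcript length in nucleotides (x axis); each line is 1 pair of libraries. Pair 1 falls from 0.33 in the shortest quintile to -0.43 in the longest, pair 2 climbs from -0.13 to 0.14, and pair 3 stays near 0.

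Across all genes, no transcript passed the threshold when the 3 pairs were tested together. With edgeR's quasi-likelihood test and the replicate as a block, 0 of 12209 genes had a Benjamini-Hochberg adjusted p under 0.25 (0% called), the threshold of the study, and the lowest adjusted p was 0.448, for Fos and Egr1. At an unadjusted p under 0.05, 345 genes were higher with CR-31 (2.83%) and 43 were lower (0.352%). limma-voom called 0 genes, while DESeq2 called 52, all of them higher (0.426% of the tested genes). In 1880 genes (15.4%) all 3 pairs were higher with CR-31 and in 1408 (11.5%) all 3 were lower. Without replicate 1, the fit of the remaining 2 pairs called 1122 genes higher (9.19%) and 556 lower (4.55%). Without replicate 2 it called 6 higher and 5 lower, and without replicate 3 it called 5 higher and 1 lower. The column headers carry a code before the index of each library, of which the sources used here do not say what it stands for. Vehicle 2 and CR-31 2 had different codes, so leaving out replicate 2 also leaves only pairs whose libraries shared a code. The fit without replicate 1 keeps pair 2, in which the code cannot be told apart from the treatment, and this holds for all its counts below.

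**Figure D2:**
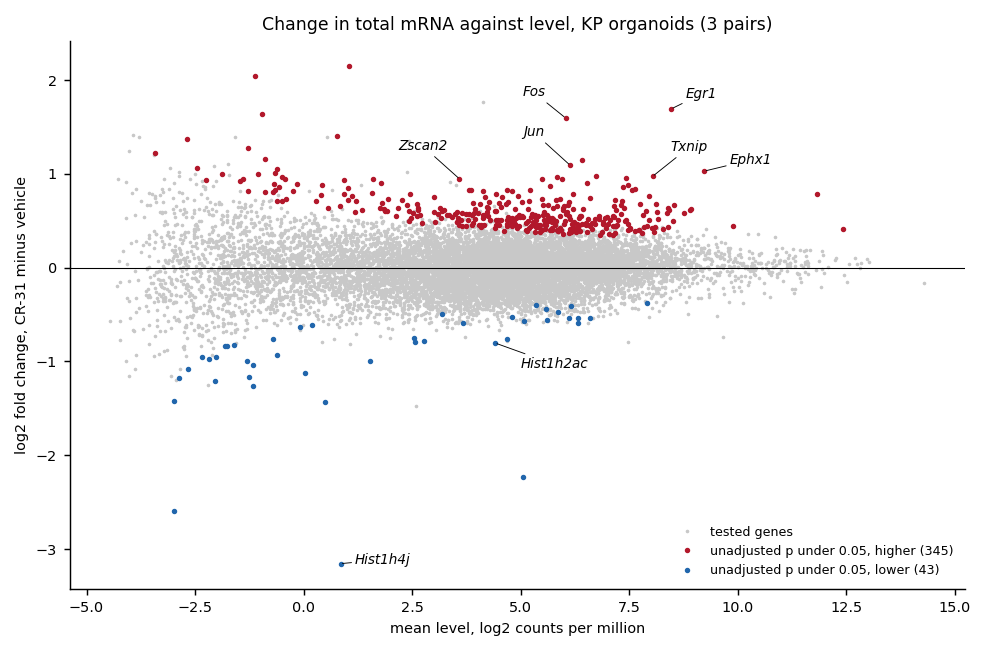
Log2 fold change of CR-31 against vehicle (y axis) for each of the 12209 tested genes by its mean level in log2 CPM (x axis); coloured points have an unadjusted p under 0.05 in edgeR's quasi-likelihood test. There are 345 coloured points above 0 and 43 below it, and Fos and Egr1 stand out at 1.60 and 1.69.

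Fos and Egr1, the genes with the lowest p, encode transcription factors of the immediate early response. Fos, which pairs with Jun proteins to form AP-1, measured 42.4, 31.3 and 22.5 CPM (counts scaled to equal TMM-normalized library size) in the vehicle libraries and 101, 134 and 60.9 CPM in the CR-31 libraries. Every treated library was above every control. The fold change was 3.02 (log2 1.60 ± 0.20 SE, n = 3 pairs, edgeR adjusted p = 0.448). The range of the adjusted p over the alternatives was 5.05e-09 to 0.9999. Egr1, a zinc finger factor switched on by the ERK pathway, measured 364, 107 and 90.2 CPM in vehicle and 773, 474 and 323 CPM with CR-31. Its groups overlap, because vehicle 1 lay above CR-31 3, although each pair was higher with CR-31. Its log2 change was 1.69 ± 0.23 (SE, edgeR adjusted p = 0.448, with a range over the alternatives of 6.76e-10 to 0.9999). Both genes passed the threshold without replicate 1, where their log2 changes were 1.77 and 1.99, and both were called by DESeq2.

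Jun and Junb, partners of Fos in AP-1, were also higher in every pair. Jun measured 40.9, 34.5 and 60.0 CPM in vehicle and 70.0, 104 and 113 CPM with CR-31, a log2 change of 1.09 ± 0.20. Junb measured 118, 126 and 103 CPM in vehicle and 235, 228 and 174 CPM with CR-31, a log2 change of 0.86 ± 0.15. For neither did a treated library fall below a control. Fosb was scarce, at up to 2.42 CPM in vehicle and up to 3.54 CPM with CR-31, with overlapping groups, and its log2 change was 0.93 ± 0.29. Jund, whose mRNA is the most steadily expressed of the Jun genes, had a log2 change of 0.12, which was -0.05 without replicate 1. Of the 6 tested genes of the AP-1 family, 5 were higher in all 3 pairs (15.4% of all tested genes), 5 had an unadjusted p under 0.05 (2.83%), 0 passed the adjusted threshold, and the median log2 change was 0.90 against 0.0072 over all tested genes. By pair the median of the family was 0.66, 1.22 and 0.71, so its size was not that of pair 1 alone. All 5 genes that were higher in the 3 pairs passed the threshold once replicate 1 was left out (9.19% of all tested genes were called higher there).

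**Figure D3:**
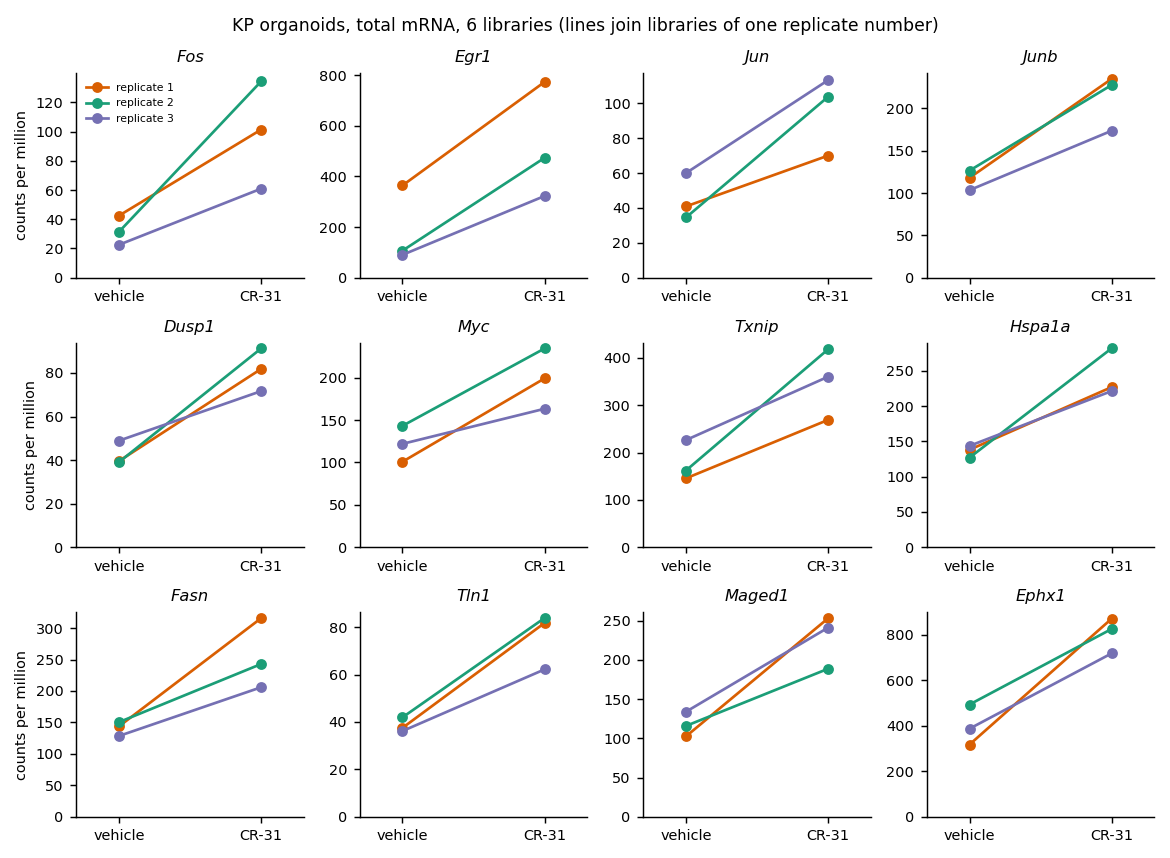
CPM (y axis, from 0) of 12 genes in the 3 vehicle and 3 CR-31 libraries of total mRNA from KP organoids; each point is a library and each line joins the libraries of 1 replicate number. Every line climbs from vehicle to CR-31, and for Egr1 alone among the 12 a vehicle library (364 CPM) lies above a treated library (323 CPM).

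Immediate early genes outside AP-1 formed a longer list. Of 27 tested, 17 were higher in all 3 pairs (15.4% of all tested genes) and 2 were lower in all 3 (11.5%), 10 had an unadjusted p under 0.05 with a higher level (2.83%), and the median log2 change was 0.30. Cyr61, a secreted matrix protein of the YAP and SRF programmes, measured 104, 113 and 163 CPM in vehicle and 235, 227 and 224 CPM with CR-31. The treated libraries sat close together above all the controls, and the log2 change was 0.88 ± 0.18. Ier2 had a log2 change of 0.67 ± 0.15, Ier5 of 0.56 ± 0.15 and the stress factor Atf3 of 0.52 ± 0.16, each higher in 3 of 3 pairs. Btg2, an antiproliferative early gene, measured 83.0, 145 and 112 CPM in vehicle and 110, 239 and 156 CPM with CR-31, so the groups overlap while each treated library lies above its own control. The factors Klf4, Klf6 and Srf and the kinase Sgk1 had log2 changes of -0.19, -0.09, 0.01 and -0.05, which were -0.15, 0.29, -0.16 and 0.02 without replicate 1, so the sign of the last 3 rests on that pair. The list as a whole had 16 members called higher without replicate 1 (9.19% of all tested genes) and 0 called lower (4.55%).

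Some negative regulators of MAP kinase signalling, a group with many early ERK targets, were also among the higher genes. Dusp1, a nuclear phosphatase of p38, JNK and ERK, measured 39.5, 39.1 and 48.9 CPM in vehicle and 81.9, 91.3 and 71.7 CPM with CR-31. Its groups do not overlap and its log2 change was 0.94 ± 0.18. Dusp5 and Dusp6, phosphatases specific for ERK, had log2 changes of 0.75 ± 0.17 and 0.65 ± 0.15, and neither had a treated library below a control. Spry4 was at 0.54 ± 0.19. Spred1 went the other way, from 112, 80.8 and 90.0 CPM to 48.8, 72.8 and 74.6 CPM. Of the 16 tested members, 9 were higher in all 3 pairs (15.4% of all tested genes) and 1 was lower in all 3 (11.5%), and the median log2 change was 0.19. An unadjusted p under 0.05 was found for 4 with a higher level (2.83%) and 1 with a lower level (0.352%). Without replicate 1, 8 were called higher (9.19% of all tested genes) and 1 lower (4.55%).

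Of the factors that bind AU-rich elements or degrade mRNA, Zfp36, which promotes the decay of early gene and cytokine mRNAs, had the lowest p. It measured 91.2, 51.3 and 76.3 CPM in vehicle and 162, 102 and 101 CPM with CR-31, a log2 change of 0.74 ± 0.17. The groups do not overlap. Its relative Zfp36l1 was also higher in all 3 pairs with groups that do not overlap, at a log2 change of 0.25 that was 0.35 without replicate 1. These 2 members were the ones called higher in the fit without replicate 1 (9.19% of all tested genes). The median over the 10 tested members was 0.03, and Zfp36l2, Zc3h12a, Elavl1 and Khsrp had log2 changes of 0.02, 0.04, 0.07 and 0.05. Rc3h1 and Rc3h2, which encode the Roquin proteins and have long transcripts, had log2 changes of -0.48 and -0.74 that became -0.06 and -0.20 without replicate 1.

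NF-kB feedback genes and chemokines had a median log2 change of 0.17, which was 0.28 without replicate 1. Of 20 tested, 7 were higher in all 3 pairs (15.4% of all tested genes) and 0 were lower in all 3 (11.5%). An unadjusted p under 0.05 with a higher level was found for 4 (2.83%), and without replicate 1 the fit called 10 higher (9.19%) and 0 lower (4.55%). Of the 20, 0 had groups that do not overlap, against 4.14% of all tested genes that did not overlap with a higher level. The chemokine Ccl2 measured 1.03, 3.42 and 49.97 CPM in vehicle and 1.53, 9.29 and 63.7 CPM with CR-31. The replicates thus differed far more from each other than the treatments did within a pair, and the log2 change was 0.79 ± 0.25. Tnf showed the same layout, with a log2 change of 0.63 ± 0.22, and both genes changed sign when the header code took the place of the replicate in the model. Nfkbia, the inhibitor that NF-kB induces first, had a log2 change of -0.01.

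The promoters of these groups were read for the letters through which early genes are known to be switched on, in the RefSeq windows of mouse build GRCm38.p6 that run from 250 bases before to 50 bases after a start. The windows below are shown as examples of members that hold a match, from the groups described above. Each is written 5′ to 3′ on the strand of its gene, 30 bases long, with the match in capitals. For the CArG box, the letters bound by serum response factor, the match begins 82 bases before the start in Dusp5, where 2 boxes adjoin, and 58 bases before it in Zfp36. For the cyclic AMP response element TGACGTCA the match in Dusp1 begins 143 bases before the start. For the NF-kB letters GGGNNTTTCC, matched on either strand, Cxcl1 and Nfkbia are shown as members whose log2 changes were 0.39 and -0.01.
Dusp5, chr19:53529058-53529087, plus strand: aatacCCATATTTGGCCTTATATGGgcact
Zfp36, chr7:28379267-28379296, minus strand: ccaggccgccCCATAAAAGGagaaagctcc
Dusp1, chr17:26508597-26508626, minus strand: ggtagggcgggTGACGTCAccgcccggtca
Cxcl1, chr5:90891155-90891184, plus strand: gGGAAACACCCtgtactccGGGAATTTCCc
Nfkbia, chr12:55492657-55492686, minus strand: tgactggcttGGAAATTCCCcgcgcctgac

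On either strand, the CArG box was found in 1.63% of all 32851 windows, TGACGTCA in 1.79%, GGGNNTTTCC in 1.63% and the AP-1 letters TGANTCA in 7.81%. Counted by gene, with 27025 genes in all, these shares were 1.81%, 2.03%, 1.89% and 8.97%. Of the 22 early genes outside AP-1 that matched a window, 2 held a CArG box (Egr2 and Srf), 4 held TGACGTCA (Btg2, Errfi1, Maff and Plk2) and 1 held TGANTCA (Csrnp1). Of the 13 matched MAPK feedback genes, 1 held a CArG box (Dusp5), 2 held TGACGTCA (Dusp1 and Dusp8) and 1 held GGGNNTTTCC (Dusp5). Among the 9 matched AU-rich element and mRNA decay factors, 2 held a CArG box (Hnrnpd and Zfp36) and 2 held TGANTCA (Rc3h1 and Zfp36l1). GGGNNTTTCC was in 6 of the 15 matched genes of the NF-kB list and TGANTCA in 5 of them. The windows of the 6 AP-1 genes, Fos among them, held none of these letters, which says only that they are not in this stretch. Of the 15 higher genes with the lowest p, 14 matched a window, of which 1 held TGACGTCA (Dusp1) and 0 held any of the other letters. A match is a description of the sequence and not a site of binding.

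Heat shock genes divided. Hspa1a and Hspa1b, near-identical genes for the inducible chaperone HSP70, measured 127 to 144 and 175 to 189 CPM in vehicle and 222 to 282 and 288 to 349 CPM with CR-31. For neither did the groups overlap, and the log2 changes were 0.83 ± 0.17 and 0.77 ± 0.16. Reads that fit both genes were discarded, so the split between the pair is uncertain. Hspa1l, another HSP70 gene, which the list did not hold and which was picked out after its value was seen, was at 0.83 ± 0.19. Over the 18 tested members of the list the median was 0.06. Without replicate 1 the fit called 5 of them higher (9.19% of all tested genes) and 0 lower (4.55%). Smaller values were those of Hspa8 at 0.01, Hsp90ab1 at 0.01, Hsp90aa1 at -0.16 and Dnajb1 at 0.25. The integrated stress and unfolded protein responses, programmes that follow a block of translation initiation or of protein folding, had a median of -0.0047 over 25 genes, of which 5 were called higher (9.19% of all tested genes) and 5 lower (4.55%) without replicate 1. Atf4 was at -0.10, Trib3 at 0.02, Asns at 0.08 and Hspa5 at -0.05, and without replicate 1 they were at -0.17, -0.20, -0.09 and 0.22. The exception there was Atf3, which is also an early gene.

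Myc, whose short-lived mRNA and protein drive growth, measured 101, 143 and 122 CPM in vehicle and 199, 234 and 163 CPM with CR-31. All treated libraries were above all controls, and the log2 change was 0.71 ± 0.17 (edgeR adjusted p = 0.952). Txnip, an arrestin that restrains glucose uptake and a target of the MYC relative MondoA, measured 146, 162 and 226 CPM in vehicle and 269, 418 and 360 CPM with CR-31, a log2 change of 0.97 ± 0.18. Its groups do not overlap either. Arrdc4, another target of MondoA, had a log2 change of -0.14, and the median of the MYC and MAX network was 0.02 over 14 genes, of which 2 had an unadjusted p under 0.05 with a higher level (2.83% of all tested genes) and 3 were called higher without replicate 1 (9.19%).

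Targets of p53, of which these tumours carry a mutant allele, had a median of 0.09 over 22 genes, which was 0.16 without replicate 1, where 10 were called higher (9.19% of all tested genes) and 1 lower (4.55%). Cdkn1a, the inhibitor of cyclin-dependent kinases, was at 0.33, Mdm2 at -0.17 and Bax at 0.07, and without replicate 1 they were at 0.24, 0.22 and -0.12. An unadjusted p under 0.05 was found for 3, all higher (2.83% of all tested genes, against 0.352% lower). They were Btg2, the death receptor Tnfrsf10b (0.50 ± 0.16) and the stress cytokine Gdf15 (0.48 ± 0.18, and 0.28 without replicate 1). Among 13 genes of the BCL2 family 0 had an unadjusted p under 0.05, which is near those shares for so short a list. Mcl1 was at -0.09 and Bcl2l1 at 0.05.

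The target of the drug and its partners had log2 changes that were mostly below 0, and 0 passed the adjusted threshold. Eif4a1, the main eIF4A gene, measured 1250, 1037 and 1254 CPM in vehicle and 1090, 993 and 1250 CPM with CR-31. The groups overlap, and the log2 change was -0.09 ± 0.16. Eif4a2 is counted in a joint entry with Rfc4, which had a log2 change of -0.32 that was carried by pair 1. Eif4g1, the scaffold of eIF4F, was the 1 member with an unadjusted p under 0.05, from 214, 186 and 175 CPM to 305, 231 and 216 CPM, a log2 change of 0.37 ± 0.15. Eif4e, the cap-binding subunit, was at -0.14 ± 0.17, a value that turned to 0.03 without replicate 1. Over the 16 tested genes of the complex and its regulators the median was -0.10, with pairs at -0.18, -0.10 and -0.10. Of these, 6 were lower in all 3 pairs (11.5% of all tested genes) and 1 was higher in all 3 (15.4%), and without replicate 1 the fit called 2 higher (9.19%) and 2 lower (4.55%).

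Large families of housekeeping transcripts had medians near 0, and their sign depended on the pair. The 75 cytosolic ribosomal protein genes, short and abundant, had a median of 0.30 in pair 1, -0.17 in pair 2 and -0.12 in pair 3, which the fit over 3 pairs returned as -0.00075. The 72 nuclear-encoded subunits of the respiratory chain, also short, went through 0.42, -0.18 and -0.01. The 309 zinc finger genes with Zfp symbols, which are longer, went through -0.51, 0.37 and 0.02. Without replicate 1 the medians were -0.15, -0.10 and 0.17, with 15 ribosomal protein genes called lower and 0 higher, 8 respiratory chain genes lower and 1 higher, and 58 zinc finger genes higher and 3 lower, where 9.19% of all tested genes were called higher and 4.55% lower. The median transcript lengths of the 3 families were 703, 687 and 3330 nucleotides. With a length trend fitted per library and taken out, the medians over 3 pairs were -0.02, 0.03 and -0.01. For these families no direction is given.

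**Figure D4:**
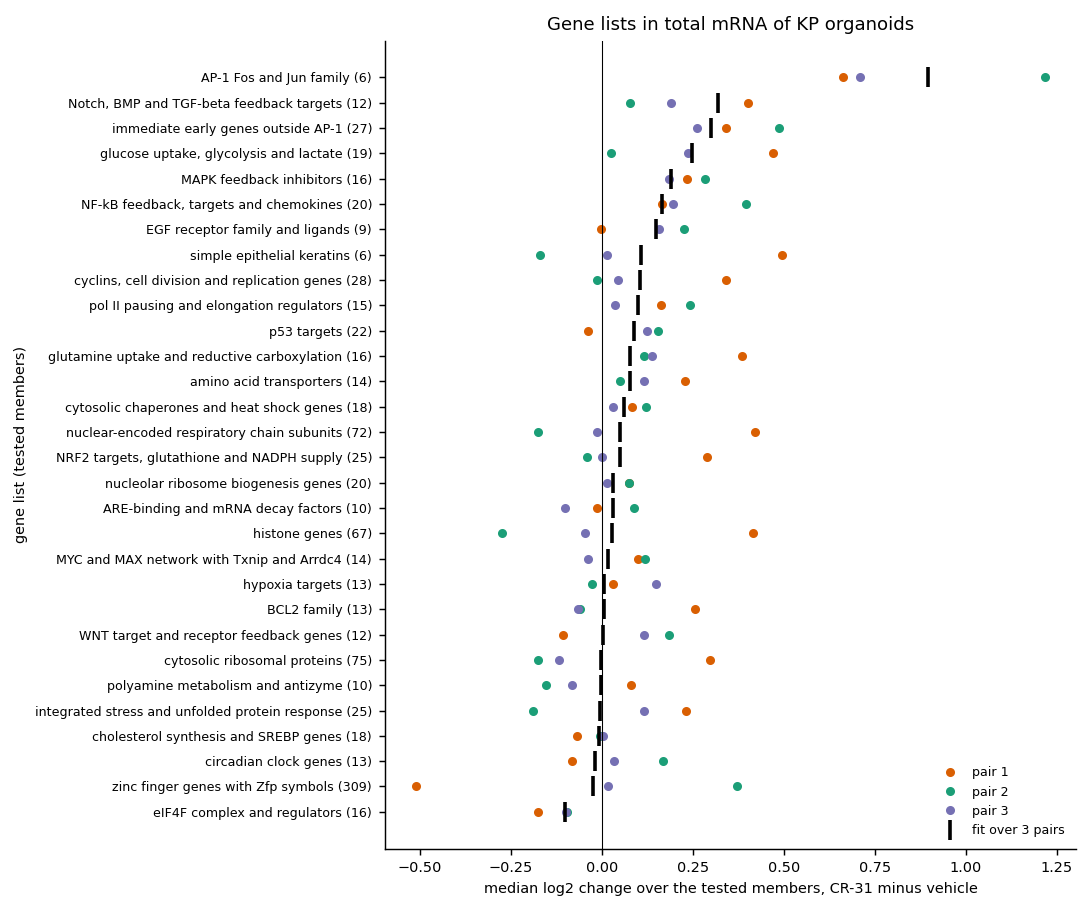
Median log2 change of CR-31 against vehicle over the tested members of 30 gene lists (number of members in brackets); coloured points are the 3 pairs and black bars the fit over all pairs. The AP-1 family is at 0.90 with its 3 pairs between 0.66 and 1.22, while the ribosomal protein, respiratory chain, histone and Zfp lists have pair 1 on the opposite side of 0 from pair 2.

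Genes of sugar, lipid and glutamine metabolism differed among their lists. In the list of glucose uptake, glycolysis and lactate, 10 of 19 genes were higher in all 3 pairs (15.4% of all tested genes) and 3 had an unadjusted p under 0.05 with a higher level (2.83%). The median was 0.25, with pairs at 0.47, 0.03 and 0.24, and it was 0.12 without replicate 1, where 6 were called higher (9.19%) and 0 lower (4.55%). Those 3 were Pfkfb3, which makes the activator of phosphofructokinase (0.70 ± 0.22), hexokinase Hk2 (0.54 ± 0.19) and the glucose transporter Slc2a1 (0.43 ± 0.17, and 0.26 without replicate 1). Slc2a6 and Eno2 were counted at 0.063 to 0.296 CPM and 0.112 to 0.276 CPM, too low for a fold to be read.

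In the list of glutamine uptake and reductive carboxylation, the path by which citrate made from glutamine feeds fatty acid synthesis, 4 of 16 genes had an unadjusted p under 0.05 and all 4 were higher (2.83% of all tested genes, against 0.352% lower). Without replicate 1 the fit called 7 higher (9.19%) and 2 lower (4.55%). Fasn, fatty acid synthase, measured 144, 150 and 128 CPM in vehicle and 316, 243 and 206 CPM with CR-31. Acly, which splits citrate into acetyl-CoA, measured 193, 246 and 204 CPM in vehicle and 320, 372 and 337 CPM with CR-31. In both genes every treated library was above every control, with log2 changes of 0.84 ± 0.17 and 0.68 ± 0.15. Aconitase Aco1 (0.55 ± 0.16) and the glutamine transporter Slc1a5 (0.53 ± 0.18, and 0.33 without replicate 1) were the other two. Idh1 and Idh2, isocitrate dehydrogenases, were at -0.04 and 0.03. Pcx, pyruvate carboxylase, which no list held, measured 21.98, 30.2 and 42.5 CPM in vehicle and 57.9, 53.6 and 65.2 CPM with CR-31, a log2 change of 0.95 ± 0.20. The 18 genes of cholesterol synthesis had a median of -0.0064 with 0 genes under an unadjusted p of 0.05.

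The 25 NRF2 targets and genes of glutathione and NADPH supply had a median of 0.05, and 2 were called higher (9.19% of all tested genes) and 1 lower (4.55%) without replicate 1. Hmox1, heme oxygenase, was the 1 member with an unadjusted p under 0.05, from 105, 75.5 and 39.8 CPM to 168, 109 and 46.9 CPM. Each pair was higher, while the replicates spanned a wider range than the treatments, and the log2 change was 0.48 ± 0.16. Nqo1, Gclc and Srxn1 had log2 changes of 0.15, -0.09 and -0.14.

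Among regulators of transcription and division, Polr2a, the largest subunit of RNA polymerase II, measured 70.0, 49.4 and 104 CPM in vehicle and 134, 140 and 147 CPM with CR-31. The treated libraries were nearly level at a height above all the controls, and the log2 change was 0.97 ± 0.21. Mepce, Brd2 and Med26, which act on the pausing and release of that polymerase, were at 0.50, 0.43 and 0.44, and these 4 were the members of a list of 15 with an unadjusted p under 0.05 (2.83% of all tested genes). In that list 6 were called higher (9.19% of all tested genes) and 0 lower (4.55%) without replicate 1. Cdc6, which loads the replicative helicase, went from 19.5, 14.5 and 21.9 CPM to 37.1, 27.4 and 33.9 CPM, with a log2 change of 0.83 ± 0.17. The helicase subunits Mcm7 and Mcm2 were at 0.68 and 0.43 (Mcm2 at 0.22 without replicate 1), and with Cdc6 they were the 3 of 28 cell cycle genes with an unadjusted p under 0.05 (2.83% of all tested genes). Without replicate 1 the fit called 6 of the 28 higher (9.19%) and 2 lower (4.55%). Ccnd1, Ccnb1, Mki67 and Top2a were at 0.14, 0.01, 0.00 and -0.15 over 3 pairs, and at 0.09, 0.11, 0.54 and 0.17 without replicate 1. The Notch target Hes1, an unstable mRNA that oscillates in many tissues, was at 0.55 ± 0.16, and the TGF-beta corepressor Tgif1 at 0.52 ± 0.16. The median of their list of 12 genes was 0.32, with pairs at 0.40, 0.08 and 0.19. Without replicate 1, 4 were called higher (9.19% of all tested genes) and 0 lower (4.55%).

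The remaining lists had medians between -0.02 and 0.15, and 0 or 1 member each with an unadjusted p under 0.05. Without replicate 1 the fit called 5 of 13 hypoxia targets higher and 2 lower, 3 of 9 genes of the EGF receptor family and ligands higher and 1 lower, and 4 of 14 amino acid transporters higher and 1 lower. It called 3 of 13 clock genes, 4 of 20 nucleolar genes and 2 of 12 WNT genes higher and 0 of them lower, and 0 of the 10 polyamine genes and 0 of the 6 keratins in either direction, where 9.19% of all tested genes were called higher and 4.55% lower. They covered the EGF receptor family and ligands, WNT and hypoxia targets, clock genes, polyamine metabolism, amino acid transporters, nucleolar ribosome biogenesis and simple epithelial keratins. Their leading members were Nrg1, a ligand of ERBB3 (0.73 ± 0.23), the prolyl hydroxylase P4ha2 (0.55 ± 0.17), the nucleolar methyltransferase Nop2 (0.59 ± 0.17) and the clock repressor Bhlhe40 (0.43 ± 0.15).

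Genes outside these groups completed the 15 higher genes with the lowest p. Tln1, talin, which links integrins to actin, measured 37.5, 41.9 and 36.2 CPM in vehicle and 81.8, 83.9 and 62.2 CPM with CR-31. Ephx1, microsomal epoxide hydrolase, measured 318, 494 and 387 CPM in vehicle and 872, 826 and 719 CPM with CR-31. Maged1 measured 103, 116 and 134 CPM in vehicle and 253, 189 and 241 CPM with CR-31. In all these genes the lowest treated library was above the highest control, with log2 changes of 0.97 ± 0.16, 1.03 ± 0.19 and 0.95 ± 0.17. Prpf8, the core protein of the spliceosome, and Zscan2, a zinc finger gene, were at 0.90 ± 0.18 and 0.95 ± 0.20. Of the 15, 14 had groups that do not overlap, against 4.14% of all tested genes, though a low p is how the 15 were chosen. All 15 were called higher without replicate 1 (9.19% of all tested genes) and all 15 by DESeq2 (0.426%). Both fits reuse libraries by which the 15 were chosen, so these calls are not separate support.

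Some of the most abundant and some epithelial genes lay among the 345 with an unadjusted p under 0.05 and were picked out after their values were seen. Clu, the chaperone clusterin, measured 1047, 2918 and 4493 CPM in vehicle and 2377, 4833 and 6153 CPM with CR-31, so each pair was higher although the groups overlap, and the log2 change was 0.79 ± 0.19 over 3 pairs and 0.59 without replicate 1. E-cadherin, Cdh1, measured 266, 401 and 379 CPM in vehicle and 426, 569 and 557 CPM with CR-31. The ductal factor Sox9 went from 26.7, 37.9 and 35.97 CPM to 43.7, 72.2 and 52.9 CPM. For Cdh1 and Sox9 all treated libraries were above the controls. The epithelial markers Krt19 and Epcam were at 0.05 and -0.15.

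The 345 genes were not confined to scarce transcripts. By quintiles of mean level, from the scarcest to the most abundant, 47, 46, 64, 89 and 99 of them fell in each, whereas 23 of the 43 lower genes were in the scarcest quintile, under 3.60 CPM. By quintiles of transcript length the 345 divided as 35, 67, 87, 92 and 64 from shortest to longest. The 1122 genes called higher without replicate 1 leaned more to length, at 68, 174, 246, 313 and 321, and the 556 called lower leaned to short transcripts, at 176, 115, 106, 83 and 76. Transcript length was thus unevenly shared, and its part in these calls was not tested beyond the fit with a length trend, which called 1046 higher and 767 lower without replicate 1.

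Genes lower with CR-31 had weaker support. Among the 15 with the lowest p that were lower in all 3 pairs, the median log2 ratio was -1.19 in pair 1 and -0.27 in each of the other pairs, so replicate 1 carried most of their size. Mettl9 measured 120, 106 and 116 CPM in vehicle and 54.6, 87.9 and 99.2 CPM with CR-31, a log2 change of -0.54 ± 0.21 that was -0.24 without replicate 1. Kmt5a, which methylates histone H4, measured 297, 266 and 252 CPM in vehicle and 194, 223 and 209 CPM with CR-31, a log2 change of -0.38 ± 0.16. In both genes every treated library was below every control, which held for 6 of the 15 and for 1.74% of all tested genes. A low p and the same sign in 3 pairs are how the 15 were chosen, which favours such genes. The kinase gene Hipk3 and the ERK inhibitor Spred1 were at -0.76 and -0.53, and at -0.28 and -0.21 without replicate 1. Of the 15, 12 were called lower without replicate 1 (4.55% of all tested genes) and 0 by DESeq2 (0%). Both fits reuse libraries by which the 15 were chosen, so the count of 12 is not separate support.

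Histone genes held the widest values in the lower direction and also the widest spread. Hist1h4j measured 4.84, 0.106 and 5.12 CPM in vehicle and 0.296, 0.151 and 0.215 CPM with CR-31, so that pair 2 went the other way and the log2 change was -3.16 ± 0.87. Hist1h2ac measured 81.3, 10.04 and 1.79 CPM in vehicle and 26.9, 6.43 and 1.65 CPM with CR-31. The vehicle libraries alone thus spanned 1.79 to 81.3 CPM, beside a log2 change of -0.80 ± 0.28 that was -0.40 without replicate 1. The 67 tested histone genes had a median of 0.03, with pairs at 0.42, -0.27 and -0.05, and without replicate 1 the median was -0.18 with 4 called higher (9.19% of all tested genes) and 15 lower (4.55%). Histone genes of the clusters have near-identical copies and mostly lack a poly(A) tail, so their values are uncertain.

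The same genes were then read in the total mRNA of N organoids, whose 6 libraries share none with the comparison above. Of the 15 higher genes, 14 were higher in all 3 pairs of N (background 21.5%), with a median log2 change of 1.08 against 0.95 in KP. An unadjusted p under 0.05 with a higher level was found for 13 (background 5.55%). The p-values for N come from a fit of the KP and N total mRNA libraries together, which share the estimate of spread for each gene. The 15 were chosen by a low p in KP, which favours a small spread there. Neither the count of 13 nor their adjusted p-values in N below are therefore separate support. The signs of the N pairs do not use that estimate. Of the 345, 261 were higher in all 3 pairs of N. Of the 15 lower genes, 7 were lower in all 3 pairs of N (background 22.6%). The N pairs were not alike. Fos had log2 ratios of 1.20, 0.37 and 5.29 in the 3 pairs of N, and the median of the AP-1 family was 0.73, 0.33 and 3.31, so N replicate 3 held most of the early gene values there. Maged1 was even, at 0.98, 0.99 and 1.29, as was Hspa1a at 1.01, 0.82 and 1.47, and both passed the threshold in N with an edgeR adjusted p of 0.169, where 6 genes were called higher (0.0491%) and 2 lower (0.0164%).

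Whether KP and N responded differently was tested as an interaction of organoid type and treatment. It called 1 gene, Gm8909 (0.00819%), and 110 genes had an unadjusted p under 0.05 (0.901%). For Fos the KP minus N difference was -0.45 (edgeR adjusted p = 0.953), for Egr1 -0.26, for Myc -0.05 and for Txnip -0.05. Of the 15 higher genes, 2 had an unadjusted p under 0.05 in this test. They were Pcx and Prpf8, with differences of 0.60 and 0.66 and an edgeR adjusted p of 0.939 each. None of the 15 passed the adjusted threshold, and with 3 pairs a side the test does not show that the responses are equal.

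The same genes were also read in the polysome-associated mRNA of the same KP lysates. All 15 higher genes were higher in all 3 polysome pairs (background 30.7%), and their median log2 change there was 0.83 against 0.95 in total mRNA. Of the 15 lower genes, 5 were lower in all 3 polysome pairs (background 28.7%), with a median of -0.12. Across the 12209 tested genes, which are not independent replicates, the log2 ratios in total and in polysome mRNA of the same lysates had a Pearson correlation of -0.29 in pair 1, 0.51 in pair 2 and 0.18 in pair 3. Fos was at 1.17, 2.13 and 1.46 in the 3 polysome pairs and Myc at 0.67, 0.78 and 0.37. As the difference between polysome and total mRNA in the change with CR-31, tested with the lysate as a block, edgeR called 0 of 12209 genes, DESeq2 also called 0, and 1394 had an unadjusted p under 0.05 (11.4%). None of the 15 higher genes was among the 1394. The largest shortfall on polysomes by p within the 15 was that of Ephx1, at -0.41, with an unadjusted p above 0.05.

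**Figure D5:**
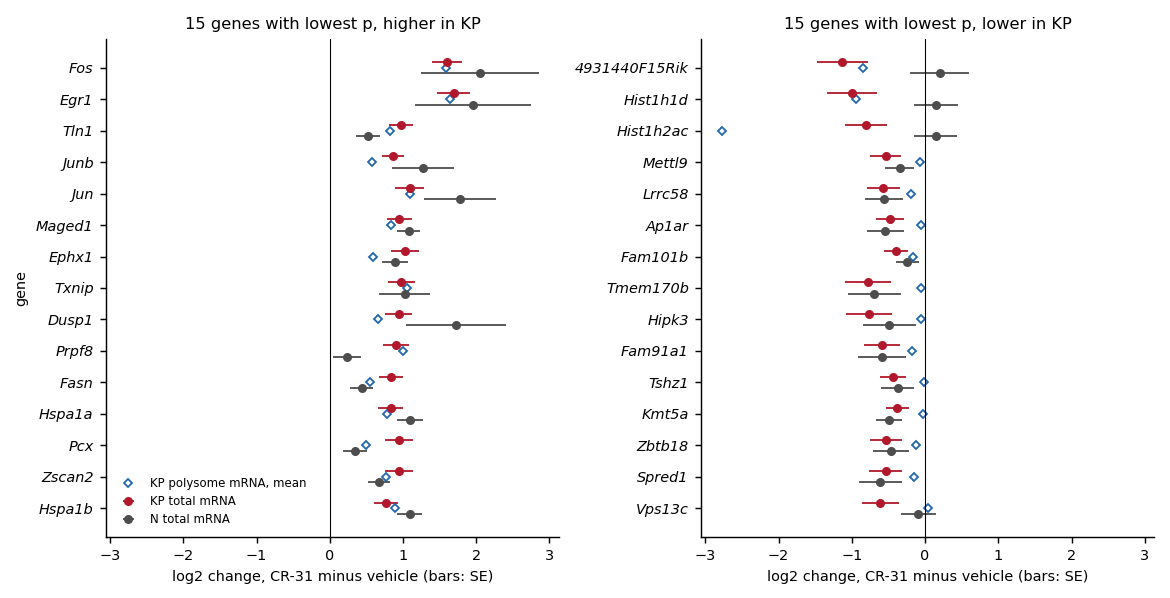
Log2 change of CR-31 against vehicle for the 15 higher (left) and 15 lower (right) genes with the lowest p in total mRNA of KP organoids; filled points with SE bars are edgeR fits in KP and N total mRNA, and open diamonds are means of 3 KP polysome pairs. The higher genes lie above 0 in all sets, with wide bars in N for Fos, Egr1 and Dusp1, whereas the polysome values of most lower genes lie near 0.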

How the data were processed

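The authors aligned read pairs with HISAT2, kept only uniquely mapped reads and counted these on coding RefSeq transcripts. The Methods name a human genome, while the deposited genes are mouse genes. The deposited read counts were not normalized, and the RPKM values, which the authors computed by transcript length and library total, served here only for cell type markers and, with the counts, for transcript length. The table has 19895 entries, of which 1042 list several symbols.

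Genes with a count above 0 in all 24 libraries (12209) were tested with R 4.3.3 and edgeR 4.0.16, using TMM scaling, the quasi-likelihood test and the replicate number as a block. Log2 ratios of pairs used a prior count of 0.5. The replicate numbers of the labels were taken as pairs, and same-numbered libraries deviated together from their group means (r = 0.45, 0.58 and 0.80). Other numbers gave -0.51 to -0.05, but deviations from a group mean sum to 0, so those values are no separate contrast. In pairs 1 and 3 the libraries also shared a header code, which cannot be told apart from the pairing there. Values for N organoids are from the fit of the 12 total mRNA libraries. DESeq2 1.42.0, limma 3.58.1 and the other alternatives changed 1 choice at a time, except that the header code as covariate and a 12-library fit also dropped the block, and 1 fit combined the length trend with leaving out replicate 1. The test was checked on simulated counts. Named genes are the 15 with the lowest p in each direction (mean of at least 1 CPM, 1 symbol, same sign in 3 pairs), the 4 with the lowest p of each of 30 lists, genes the study names and the 5 with the lowest p in each interaction. Other members are given as values of a list, and 1 gene and 1 allele are not reported here. The members and lists were chosen with earlier results of these data known.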

Additional observations from a re-analysis of the deposited data

Results flagged for a closer look

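Gm8909, a gene of the class I histocompatibility family, was the 1 gene whose change with CR-31 differed between KP and N organoids in the interaction test, by 6.73 on the log2 scale (KP minus N, edgeR adjusted p = 0.129). Its counts in N were 1074, 1027 and 720 with vehicle and 18, 20 and 2 with CR-31, and in KP 22, 10 and 17 with vehicle and 111, 22 and 15 with CR-31. The difference passed in 0 genes without KP replicate 1, without N replicate 3, under upper-quartile scaling and without the replicate block, and the family has near-identical copies, so its value is uncertain.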

How the results depend on the processing

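In total mRNA of KP organoids, the count of genes past the adjusted threshold was 0 under RLE and upper-quartile scaling, an expression filter, entries with several symbols left out, the 12-library fits, the header code as covariate without the block, and limma-voom. Without the replicate block (no pairing) it was 0 as well, with 157 genes higher and 9 lower at an unadjusted p under 0.05. DESeq2 gave 52 higher, with 100 lower at the unadjusted level. Without a filter on low counts 2 were higher and 2 lower. Leaving out each replicate gave 5 to 1122 higher and 1 to 556 lower, and at the unadjusted level 89 to 1312 higher and 40 to 742 lower, the highest without replicate 1. These fits rest on 2 pairs. With a length trend taken out, an alternative chosen after seeing the data, 0 passed and 70 were lower at the unadjusted level, and without replicate 1 as well 1046 were higher and 767 lower (1202 and 946 unadjusted). At the unadjusted level the 12-library fits gave 90 lower with the block, and 109 higher and 8 lower without it, and the header code as covariate without the block gave 154 lower.

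Among the 152 genes chosen by the rule, log2 changes turned sign in 14 instances. With the header code as covariate and no replicate block, which changes 2 choices, Hist1h2ac became 0.19, Ccl2 -0.49, Tnf -0.0008, Mycn -0.49, Krt20 0.14 and Egfr -0.0004. Over the fits that left out 1 replicate, Clock ranged from -0.88 to 0.017, Krt8 from -0.023 to 0.34, Krt18 from -0.032 to 0.28, Eif4e from -0.25 to 0.034, Sdhb from -0.14 to 0.30 and Ndufa3 from -0.0070 to 0.34, each turning sign without replicate 1. With the length trend removed and without replicate 1, Krt8 became -0.0073 and Sdhb -0.069. Of the other genes given by value, Jund, Srf, Klf6, Sgk1, Zc3h12a, Elavl1, Khsrp, Mdm2, Bax, Trib3, Asns, Hspa5, Hsp90aa1, Arrdc4, Gclc, Idh1, Idh2, Top2a, Bcl2l1, Mcl1 and Krt19 also turned sign without replicate 1, to between -0.20 and 0.29. The cause was not tested.

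For KP against N, upper-quartile scaling, no replicate block and leave-one-out fits gave 0 to 2 genes higher and 0 to 2 lower, DESeq2 3 higher, and at the unadjusted level 12 higher and 6 lower without the block, 83 lower with DESeq2 and 26 to 496 lower with a replicate left out. For polysome against total mRNA, leaving out a replicate gave 0 to 1 higher and 0 to 3 lower, and 222 to 769 higher and 77 to 729 lower unadjusted, and a replicate block in place of the lysate gave 355 higher. Depth limits Fosb, Slc2a6, Eno2 and Hist1h4j, which had levels under 6 CPM.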
